A study of Bos taurus with 37 samples.

Results

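The genes described here are 8 genes of the primitive endoderm, GATA6, GATA4, SOX17, HNF4A, PDGFRA, FLRT3, LAMA1 and COL4A1, picked by symbol from the 22628 rows of the deposited table for single bovine blastocysts. Its values are FPKM, fragment counts scaled by transcript length and by library size. Each symbol had 1 row, so all 8 were measured. They were chosen by symbol and not by a rule on measured values, although earlier results of these data were known at the time.

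The study profiled 35 individual blastocysts of 60 to 80 blastomeres and 2 donor cell samples. SCNT-BLs, embryos from somatic cell nuclear transfer with adult ear skin fibroblasts as donors, were collected 6 to 8 days after the transfer (6 male and 6 female). Sham NT-BLs were fertilized zygotes manipulated 18 to 22 h after IVF that kept both pronuclei but lost a polar body and some ooplasm, and were then activated chemically (6 male and 5 female). IVF-BLs came from in vitro fertilization without manipulation (6 male and 6 female). The donor fibroblasts gave 1 male and 1 female library, so they carry no replicate error and no test. The methods do not say how many donor animals the SCNT-BLs of a set came from, so donor genotype and SCNT cannot be told apart. Male and female libraries were pooled apart and sequenced on separate flow cells, so sex and flow cell cannot be told apart, and each comparison was made within 1 set. IVF-BLs served both the SCNT and the sham comparison, which therefore share their control embryos. SCNT-BLs against sham NT-BLs used the same embryos again, so the comparisons of a set are not independent.

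In the blastocyst the inner cell mass divides into epiblast and primitive endoderm (hypoblast), an epithelium that lines the blastocoel and later contributes to the yolk sac. In the mouse FGF signalling through ERK favours GATA6 over NANOG, and GATA6 is followed by SOX17, GATA4 and PDGFRA as the lineage matures. The epithelium then deposits a basement membrane of laminin and type IV collagen. An early bovine blastocyst consists mostly of trophectoderm, some of these genes are also active in that layer, and HNF4A and type IV collagen serve other tissues too.

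No read counts were used here, so the depth behind each value is unknown. Steps among values under 1 FPKM gave a relative depth of 0.369 to 1.45 across the 37 libraries, with male IVF-BL replicate 1 set to 1. Sham NT-BL libraries were shallower than IVF-BL libraries by this measure, with medians of 0.630 against 0.920 (male) and 0.678 against 1.11 (female). The SCNT-BL medians were 0.874 (male) and 0.940 (female). The part of depth in values near 0 was not tested. Summed FPKM ranged from 414105 to 601000, and 9616 to 11382 rows exceeded 1 FPKM. Blastocysts of 1 group correlated with each other at r = 0.83 to 0.94 on log2(FPKM + 1), so no pair within a group looked like a duplicate. Some values are listed at 0 where a gene may have been missed, since 4 of 83 ribosomal protein rows with a mean over 10 FPKM were at 0 in at least 1 blastocyst. Summed fibroblast markers (16 genes) reached 2.63 to 18.3 FPKM in SCNT-BLs, 9.08 to 39.6 FPKM in sham NT-BLs and 6.68 to 29.0 FPKM in IVF-BLs, against 12981 FPKM in the male and 8084 FPKM in the female donor cells.

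As a list the genes fell into a broad range of levels. GATA6 averaged 136 FPKM over the 35 blastocysts and ranked 584 among the 22628 rows. PDGFRA averaged 52.7 FPKM, HNF4A 35.3 FPKM and LAMA1 11.7 FPKM, while FLRT3 (5.42 FPKM), COL4A1 (4.33 FPKM) and GATA4 (1.29 FPKM) were low. SOX17 averaged 0.0469 FPKM. Of the genes named as primitive endoderm markers, GATA6 and PDGFRA were above 1 FPKM in all 35 embryos, GATA4 in 18 and SOX17 in 1, so the 4 did not mark the embryos alike. In a whole embryo, fewer cells of a type and less RNA per cell cannot be told apart.

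**Figure D1:**
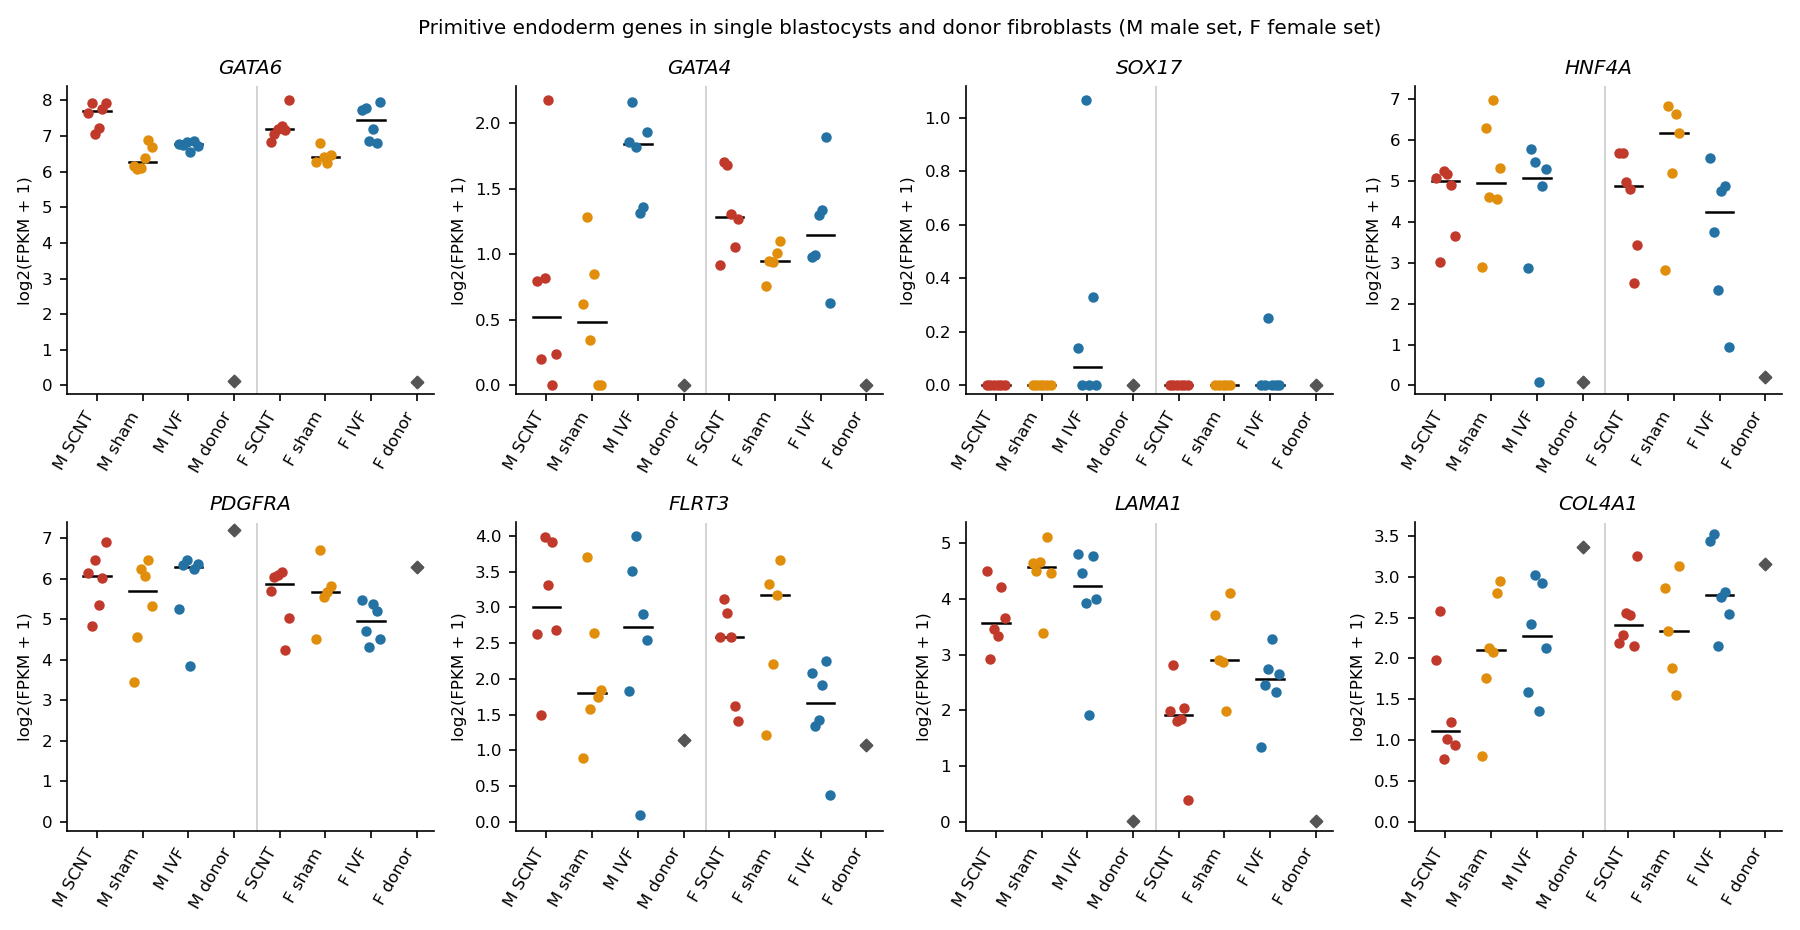
Expression of the 8 genes as log2(FPKM + 1) in each blastocyst (circles) and donor cell library (diamonds) of the male (M) and female (F) sets, with each panel on its own scale. Horizontal bars are group medians. GATA6 was high in every blastocyst and under 0.1 FPKM in the donor cells, SOX17 was listed at 0 in 31 of 35 blastocysts, and HNF4A spread widely within most groups.

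The spread between embryos of 1 group also set the genes apart. GATA6, the transcription factor that starts the programme, had a within-group SD of 0.35 on the log2 scale, smaller than that of all but 6.08% of the 11155 genes with a mean over 1 FPKM. HNF4A, a nuclear receptor of visceral endoderm and liver, had an SD of 1.60, larger than that of 99.4% of these genes. FLRT3 (SD 0.98) exceeded 89.3% of them and PDGFRA (SD 0.86) exceeded 81.7%. LAMA1 (SD 0.76), COL4A1 (SD 0.64) and GATA4 (SD 0.47) lay nearer the median of 0.61. These figures describe the genes, and a low gene such as GATA4 is compressed by the pseudocount of 1 FPKM.

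GATA6 was the member that differed most often with embryo origin. In the male set it ranged from 131 to 243 FPKM in SCNT-BLs (median 208) and from 66.9 to 116 FPKM in sham NT-BLs (median 76.1), against 92.0 to 114 FPKM in IVF-BLs (median 107). Every male SCNT-BL exceeded every male IVF-BL and every male sham NT-BL, while the sham and IVF embryos overlapped. The range was 113 to 256 FPKM in female SCNT-BLs (median 145). The 5 female sham NT-BLs had 75.6, 111, 84.0, 74.8 and 87.2 FPKM, and the female IVF-BLs 109.5 to 248 FPKM (median 178). Every female SCNT-BL exceeded every female sham NT-BL, 4 of the 5 sham embryos lay below all IVF-BLs, and SCNT and IVF embryos shared most of their range. The donor cells had 0.0906 FPKM (male) and 0.0745 FPKM (female), so the transcript was practically absent from the cells that gave the nuclei.

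Tested with limma across all genes, GATA6 was higher in male SCNT-BLs than in male IVF-BLs by 0.85 ± 0.17 (SE) on the log2 scale, 1.80-fold (adjusted p = 0.00737). It was the 1 member called of 8 tested in this comparison, in which 6.98% of all genes were called and 4.27% had groups that did not overlap. In female SCNT-BLs against female IVF-BLs the difference was -0.12 (95% interval -0.67 to 0.42, adjusted p = 0.878). None of the 7 members tested passed there by limma and none had an unadjusted p under 0.05, against a background of 0.321% called and 1.38% without overlap. The SCNT effect was -0.12 in the female and 0.85 in the male set, a difference of -0.97 ± 0.31 (female minus male) with an unadjusted limma p of 0.00403 and an adjusted p of 0.104. None of 7 members passed this test of the difference, which called 1.91% of all genes.

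Sham manipulation was compared with the same IVF-BLs. GATA6 was lower in female sham NT-BLs than in female IVF-BLs by 0.95 ± 0.24 on the log2 scale (log2 fold change -0.95, limma adjusted p = 0.018), and lower in 5 of 5 sham embryos than the IVF median. It was the 1 called of 7 tested, where 13.5% of all genes were called and 9.02% did not overlap. In male sham NT-BLs it differed from male IVF-BLs by -0.36 (95% interval -0.75 to 0.03, limma adjusted p = 0.238). The sham effect was -0.95 in the female and -0.36 in the male set, a difference of -0.59 ± 0.29 (female minus male, limma adjusted p = 0.431), and none of 7 members passed this test, which called 1.22% of all genes.

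SCNT-BLs were set against sham NT-BLs, which underwent a similar manipulation, and GATA6 was called in both sets. It was higher in male SCNT-BLs by 1.21 ± 0.22, or 2.31-fold (limma adjusted p = 0.00189). It was the 1 called and the 1 without overlap of 7 tested members, beside 11.8% of all genes called and 6.39% without overlap. In the female set SCNT-BLs were higher by 0.82 ± 0.23, or 1.77-fold (limma adjusted p = 0.0295), again the 1 called and the 1 without overlap of 7 tested, where 11.3% of all genes were called and 8.48% did not overlap. This call was lost with median centring (adjusted p = 0.0773) and without SCNT replicate 3 or 4 or sham replicate 1, 3 or 4 (adjusted p = 0.0517 to 0.0754), although the difference stayed positive, at 0.67 to 0.92, without any 1 embryo.

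Some epiblast and trophectoderm transcripts were also lower in sham NT-BLs. Of 10 epiblast markers tested by limma, 3 were lower and 0 higher than in IVF-BLs in each set, beside the 12.1% (male) and 13.5% (female) of all genes called. The list's median log2 fold change was -0.64 in the male and -0.28 in the female set, where 4 of 10 were positive, against -0.02 and -0.09 over all genes. Summed epiblast markers (12 genes measured) were 44.0 to 222 FPKM in male sham NT-BLs against 193 to 251 FPKM in male IVF-BLs, and 108 to 158 FPKM in female sham NT-BLs against 192 to 478 FPKM in female IVF-BLs. POU5F1 fell by 1.69 (limma adjusted p = 0.000719) in male and 1.97 (adjusted p = 0.00112) in female sham NT-BLs on the log2 scale. ESRRB fell by 1.43 (limma adjusted p = 0.00231) in the male and 2.28 (adjusted p = 4.8e-05) in the female set. KLF4 fell by 1.39 (limma adjusted p = 0.0112) in male and 1.72 (adjusted p = 0.00236) in female sham NT-BLs, and by 1.23 (adjusted p = 0.0212) in male SCNT-BLs against IVF-BLs, where GATA6 was higher. Of the trophectoderm markers, 0 were higher and 1 lower of 15 tested in male sham NT-BLs (median -0.41), beside 12.1% of all genes called. In female sham NT-BLs 0 of these markers were higher and 3 lower of 14 (median -0.73, 1 of 14 positive), beside 13.5% called. Their summed level was 3344 to 7666 FPKM in male sham NT-BLs against 5347 to 7723 FPKM in male IVF-BLs, and 3588 to 6491 FPKM in female sham NT-BLs against 1919 to 10034 FPKM in female IVF-BLs. The part of a changed cell makeup in the GATA6 values was not tested.

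**Figure D2:**
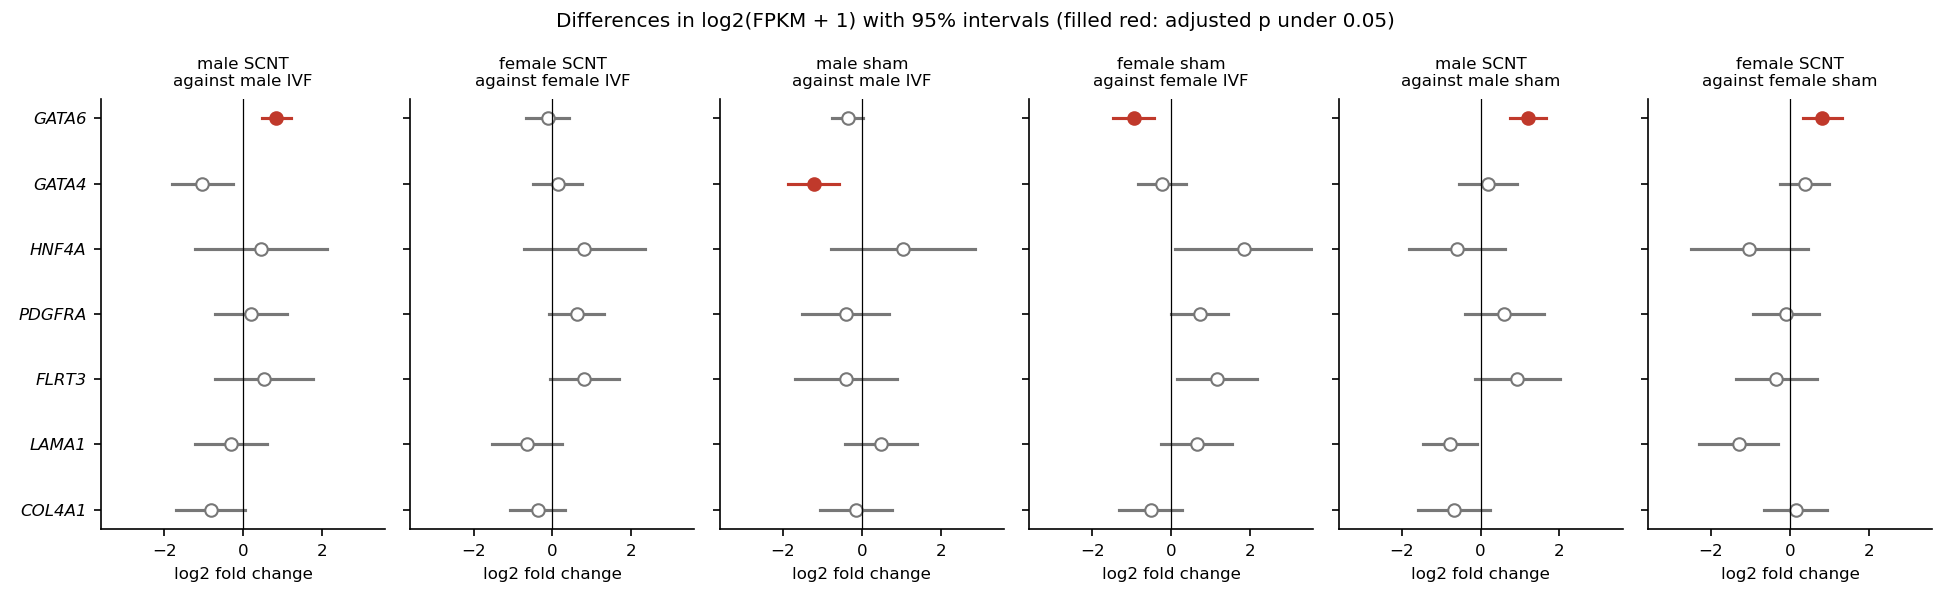
Log2 fold changes of the 7 members with enough signal in every comparison, on the log2(FPKM + 1) scale, with 95% intervals from limma. Filled red points had an adjusted p under 0.05: GATA6 in 4 of 6 comparisons and GATA4 in male sham NT-BLs against male IVF-BLs.

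GATA4, a later zinc finger factor of the lineage, was near the detection limit and did not follow GATA6. In the male set the 6 SCNT-BLs had 0.740, 0.150, 0.761, 3.51, 0 and 0.178 FPKM. The 6 male sham NT-BLs had 0.539, 1.43, 0.269, 0.806, 0 and 0 FPKM, and male IVF-BLs ran from 1.48 to 3.47 FPKM (median 2.58). All male sham NT-BLs were thus below all male IVF-BLs, and so were 5 of 6 male SCNT-BLs, with replicate 4 above all IVF embryos. For female embryos GATA4 ran from 0.885 to 2.26 FPKM in SCNT-BLs (median 1.44), from 0.691 to 1.14 FPKM in sham NT-BLs (median 0.928) and from 0.547 to 2.72 FPKM in IVF-BLs (median 1.23). The 3 female groups overlapped throughout, and both donor libraries were listed at 0.

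GATA4 was lower in male sham NT-BLs than in male IVF-BLs by 1.22 ± 0.31 on the log2 scale (log2 fold change -1.22, limma adjusted p = 0.0158). It was the 1 called and the 1 without overlap of 8 members tested, where 12.1% of all genes were called and 6.62% did not overlap. The call remained in each of 12 fits that left out 1 embryo. Male sham libraries were also shallower than male IVF libraries, with a median relative depth of 0.630 against 0.920. The part of depth in this low gene was not tested. In male SCNT-BLs the difference from IVF-BLs was -1.04 ± 0.37 and did not pass (limma adjusted p = 0.106). Without SCNT replicate 4 it was -1.33 (limma adjusted p = 0.0192), and a fit of all 6 groups with that embryo kept also called it (-1.04, limma adjusted p = 0.0297). In the female set the differences from IVF-BLs were 0.13 (95% interval -0.49 to 0.75) for SCNT-BLs and -0.24 (95% interval -0.85 to 0.37) for sham NT-BLs. The effects in the female minus those in the male set were 1.17 ± 0.45 for SCNT (limma adjusted p = 0.197) and 0.99 ± 0.39 for sham (limma adjusted p = 0.271). SCNT-BLs differed from sham NT-BLs by 0.19 (95% interval -0.55 to 0.93) in the male and 0.37 (95% interval -0.24 to 0.98) in the female set.

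SOX17, which follows GATA6 in mouse primitive endoderm, was listed at 0 in all 12 SCNT-BLs, all 11 sham NT-BLs and both donor libraries. The 4 embryos with a value were all IVF-BLs, male replicates 1, 3 and 5 at 0.101, 1.09 and 0.258 FPKM and female replicate 3 at 0.191 FPKM. Only in the male comparisons with IVF-BLs did the gene pass the filter on low values, through those IVF-BLs alone. The differences there were -0.26 for SCNT-BLs (limma adjusted p = 0.482) and -0.26 for sham NT-BLs (limma adjusted p = 0.437). At these levels a difference between groups was not detectable. Other genes of mature endoderm were equally low: the group medians of SOX7, FOXA2, TTR and CER1 were listed at 0 in all 6 blastocyst groups, and those of AFP reached at most 0.0694 FPKM.

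HNF4A was abundant in most embryos and nearly absent from a few. In the male set it ran from 7.07 to 37.1 FPKM in SCNT-BLs (median 31.0), from 6.44 to 126 FPKM in sham NT-BLs (median 31.0) and from 0.0634 to 54.6 FPKM in IVF-BLs (median 33.3). Female embryos had 4.66 to 50.7 FPKM among SCNT-BLs (median 28.7). The female sham NT-BLs had 6.06, 114, 35.9, 99.4 and 72.1 FPKM, against 0.933 to 46.6 FPKM in the female IVF-BLs (median 19.2). All groups overlapped, and each had at least 1 embryo under 8 FPKM beside others over 30. The donor cells had 0.0666 FPKM (male) and 0.146 FPKM (female), so the SCNT-BLs at 4.66 FPKM and above had the transcript while the nuclear donors practically lacked it.

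No comparison called HNF4A. The largest difference was in female sham NT-BLs, higher than IVF-BLs by 1.84 ± 0.81 (95% interval 0.11 to 3.57, limma adjusted p = 0.156), and without sham replicate 1 it was 2.52 (limma adjusted p = 0.0363). In male sham NT-BLs the difference was 1.04 (95% interval -0.79 to 2.87). SCNT-BLs differed from IVF-BLs by 0.45 (95% interval -1.23 to 2.12) in the male and 0.81 (95% interval -0.72 to 2.34) in the female set. The male value turned to -0.35 without male IVF-BL replicate 4, the embryo with 0.0634 FPKM. SCNT-BLs differed from sham NT-BLs by -0.59 (95% interval -1.82 to 0.63) in the male and -1.03 (95% interval -2.51 to 0.45) in the female set. Each of the 6 intervals included differences of more than 2-fold in at least 1 direction.

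PDGFRA encodes the receptor for PDGF-A that supports survival of mouse primitive endoderm cells. Male SCNT-BLs had 27.5 to 119 FPKM (median 66.5), male sham NT-BLs 9.92 to 87.3 FPKM (median 52.2) and male IVF-BLs 13.4 to 87.5 FPKM (median 77.6). Female SCNT-BLs had 17.8 to 71.0 FPKM (median 57.9), female sham NT-BLs 21.9 to 103 FPKM (median 49.6) and female IVF-BLs 19.0 to 43.4 FPKM (median 30.4). The groups overlapped in both sets, although 4 of 6 female SCNT-BLs and 4 of 5 female sham NT-BLs lay above all female IVF-BLs. PDGFRA was also a fibroblast gene, with 145 FPKM in the male and 77.2 FPKM in the female donor cells, so it does not separate embryo from donor cell.

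None of the 6 comparisons called PDGFRA. In the female set it differed from IVF-BLs by 0.61 ± 0.33 in SCNT-BLs (limma adjusted p = 0.512) and by 0.72 ± 0.34 in sham NT-BLs (limma adjusted p = 0.184). The sham difference passed without sham replicate 1 (limma adjusted p = 0.0415). In the male set the differences were 0.19 (95% interval -0.72 to 1.11) for SCNT-BLs and -0.41 (95% interval -1.51 to 0.70) for sham NT-BLs. SCNT-BLs differed from sham NT-BLs by 0.60 (95% interval -0.40 to 1.60) in the male and -0.10 (95% interval -0.95 to 0.74) in the female set. Among 5 further PDGF ligand and receptor genes, PDGFRB was the 1 called in any of these comparisons. It fell by 1.72 in female SCNT-BLs against female sham NT-BLs (limma adjusted p = 0.0224), with means of 1.28 FPKM and 5.97 FPKM. The share of all genes called was 11.3% in that comparison and 0.321% to 13.5% over the 6 comparisons.

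FLRT3, a transmembrane leucine-rich repeat protein that takes part in cell adhesion and FGF signalling, had 1.82 to 14.8 FPKM in male SCNT-BLs (median 7.20), 0.860 to 12.1 FPKM in male sham NT-BLs (median 2.48) and 0.0683 to 14.9 FPKM in male IVF-BLs (median 5.67). Female embryos had 1.66 to 7.68 FPKM in SCNT-BLs (median 5.00), 1.33 to 11.6 FPKM in sham NT-BLs (median 8.04) and 0.293 to 3.75 FPKM in IVF-BLs (median 2.23). All groups overlapped. The donor cells had 1.22 FPKM (male) and 1.10 FPKM (female), a level that also occurred among the lowest embryos.

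FLRT3 was not called in any comparison. In female embryos it differed from IVF-BLs by 0.81 ± 0.41 for SCNT-BLs (limma adjusted p = 0.489) and by 1.16 ± 0.48 for sham NT-BLs (limma adjusted p = 0.128). Without female sham replicate 1 the sham difference was 1.53 (limma adjusted p = 0.0336), and this embryo, with 6.06 FPKM of HNF4A, 21.9 FPKM of PDGFRA and 1.33 FPKM of FLRT3, was the lowest female sham NT-BL for all 3 genes. In male embryos the differences from IVF-BLs were 0.53 (95% interval -0.72 to 1.77) for SCNT-BLs and -0.41 (95% interval -1.70 to 0.88) for sham NT-BLs. SCNT-BLs differed from sham NT-BLs by 0.93 (95% interval -0.13 to 2.00) in the male and -0.34 (95% interval -1.37 to 0.68) in the female set.

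LAMA1 encodes the laminin alpha chain of embryonic basement membranes. It had 6.60 to 21.7 FPKM in male SCNT-BLs (median 10.8), 9.50 to 33.6 FPKM in male sham NT-BLs (median 22.7) and 2.79 to 27.0 FPKM in male IVF-BLs (median 18.0). Female SCNT-BLs had 0.314 to 6.02 FPKM (median 2.79), female sham NT-BLs 2.99 to 16.2 FPKM (median 6.45) and female IVF-BLs 1.55 to 8.69 FPKM (median 4.92). The median was lowest in SCNT-BLs and highest in sham NT-BLs in both sets, with overlap throughout, and every female group median was below every male one. The donor cells had 0.0104 FPKM and 0.0170 FPKM.

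LAMA1 differed between SCNT-BLs and sham NT-BLs by -0.77 ± 0.32 in the male (limma adjusted p = 0.142) and -1.30 ± 0.47 in the female set (limma adjusted p = 0.0912). Neither passed, and the male value passed at -0.99 without sham replicate 4 (limma adjusted p = 0.0496). Against IVF-BLs the differences were -0.30 (95% interval -1.21 to 0.62) for male and -0.65 (95% interval -1.54 to 0.24) for female SCNT-BLs. For sham NT-BLs they were 0.48 (95% interval -0.44 to 1.39) in the male and 0.65 (95% interval -0.25 to 1.55) in the female set.

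COL4A1, a chain of type IV collagen, had 0.699 to 4.98 FPKM in male SCNT-BLs (median 1.17), 0.748 to 6.73 FPKM in male sham NT-BLs (median 3.29) and 1.57 to 7.14 FPKM in male IVF-BLs (median 3.85). Female SCNT-BLs had 3.45 to 8.50 FPKM (median 4.32), female sham NT-BLs 1.95 to 7.73 FPKM (median 4.04) and female IVF-BLs 3.45 to 10.5 FPKM (median 5.87). Donor cells, at 9.29 FPKM (male) and 7.93 FPKM (female), were at or above nearly all embryos. The lowest group was male SCNT-BLs, where 4 of 6 embryos lay below every male IVF-BL.

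In male SCNT-BLs COL4A1 differed from IVF-BLs by -0.82 ± 0.41 (limma adjusted p = 0.273) and from sham NT-BLs by -0.67 ± 0.43 (limma adjusted p = 0.366). Female SCNT-BLs differed from IVF-BLs by -0.38 (95% interval -1.07 to 0.31) and from sham NT-BLs by 0.14 (95% interval -0.66 to 0.95). For sham NT-BLs against IVF-BLs the differences were -0.15 (95% interval -1.07 to 0.76) in the male and -0.52 (95% interval -1.32 to 0.28) in the female set. No comparison called the gene. In all, 5 of 44 tests of the 8 members passed, 4 of them for GATA6. The 2 SOX17 tests among the 44 carry no weight, and the comparisons of a set share groups, so the calls are not independent. The share of all genes called was 0.321% in female SCNT-BLs against female IVF-BLs and 6.98% to 13.5% in the other comparisons.

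Related genes moved with SCNT or sham in small numbers. Of 24 other primitive endoderm genes, 16 to 18 rows were tested by limma against IVF-BLs. None passed for SCNT-BLs of the female set, where 0.321% of all genes were called. None passed for sham NT-BLs of either set, where 12.1% (male) and 13.5% (female) of all genes were called. For SCNT-BLs of the male set 0 were higher and 1 was lower of 17, beside the 6.98% of all genes called. SPARC, an abundant basement membrane glycoprotein, was higher in male SCNT-BLs than in male sham NT-BLs by 1.09 (limma adjusted p = 0.0412), as 1 higher and 0 lower of 17, where 11.8% of all genes were called. In the female set 0 were higher and 3 lower of 17, where 11.3% were called. These were LRP2, the endocytic receptor megalin, at -1.09 (adjusted p = 0.0238), LAMB1, a laminin beta chain, at -0.76 (adjusted p = 0.0281), and 1 of the 2 rows of RSPO3, a secreted Wnt enhancer, at -2.18 (adjusted p = 0.00617).

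Calls among collagen IV processing and FGF genes came in comparisons with sham NT-BLs, where more of all genes were also called. PLOD3, a lysyl hydroxylase that also glycosylates collagen, was higher in sham NT-BLs than in IVF-BLs by 1.60 in the male (limma adjusted p = 0.000253) and 2.04 in the female set (limma adjusted p = 0.000125), without overlap in either. It was lower in SCNT-BLs than in sham NT-BLs by 1.49 and 1.27 (log2 fold changes -1.49 in the male and -1.27 in the female set). P4HA2, a prolyl hydroxylase subunit, was higher in male sham NT-BLs by 1.25 (limma adjusted p = 0.0193) and its partner P4HB fell by 0.76 (limma adjusted p = 0.0259), so 2 of 9 genes tested were higher and 1 lower, where 12.1% of all genes were called. In female sham NT-BLs 1 of 9 was higher and 0 lower, where 13.5% were called.

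Of 17 FGF, ERK and feedback genes tested by limma, none passed in male SCNT-BLs (6.98% of all genes called) or female SCNT-BLs (0.321%) against IVF-BLs. In male sham NT-BLs 2 were lower and 0 higher than in IVF-BLs, where 12.1% of all genes were called, and the receptor gene FGFR3 was among them, lower by 1.38 (log2 fold change -1.38, limma adjusted p = 0.0447). In female sham NT-BLs 2 fell and 0 were higher, where 13.5% were called, the kinase gene MAP2K2 by 1.84 (limma adjusted p = 0.00134) and the feedback inhibitor SPRY2 by 1.63 (adjusted p = 0.0236). Between SCNT-BLs and sham NT-BLs 1 of the 17 was higher and 1 lower in each set, where 11.8% (male) and 11.3% (female) of all genes were called. SPRY2 was lower in male SCNT-BLs by 1.37 (log2 fold change -1.37, limma adjusted p = 0.012) and higher in female SCNT-BLs by 2.18 (adjusted p = 0.00463), each without overlap. FGFR4 was lower in female SCNT-BLs by 0.94 (log2 fold change -0.94, limma adjusted p = 0.0213). Of 10 basement membrane receptor genes, DAG1 was the 1 called, lower in male SCNT-BLs than in male sham NT-BLs by 1.68 (log2 fold change -1.68, limma adjusted p = 0.0167). The share of all genes called was 11.8% in that comparison and 0.321% to 13.5% over all comparisons of 2 groups.

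Within groups, 3 of the members varied together from embryo to embryo. After each group's mean was subtracted from log2(FPKM + 1), HNF4A and FLRT3 correlated over the 35 blastocysts at r = 0.89 (Spearman rho 0.84), with a p of 1e-05 for both, the smallest that 100000 permutations within groups can give, and an adjusted p of 0.00021 over the 21 pairs of 7 members. SOX17 was left out for its zeros. The correlation was 0.89 in the 18 male and 0.91 in the 17 female blastocysts, and 0.84 without the 2 embryos farthest from the HNF4A median, male IVF-BL replicate 4 and female IVF-BL replicate 6. HNF4A and PDGFRA correlated at r = 0.72 (rho 0.59, permutation p = 3e-05 and 0.00067, adjusted 0.000315 and 0.00469), with 0.66 in male and 0.85 in female blastocysts and 0.66 without the 2 farthest. PDGFRA and FLRT3 correlated at r = 0.62 (rho 0.50, permutation p = 0.00049 and 0.00604, adjusted 0.00325 and 0.0181), with 0.54 in male and 0.81 in female blastocysts and 0.48 without the 2 embryos farthest on PDGFRA.

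**Figure D3:**
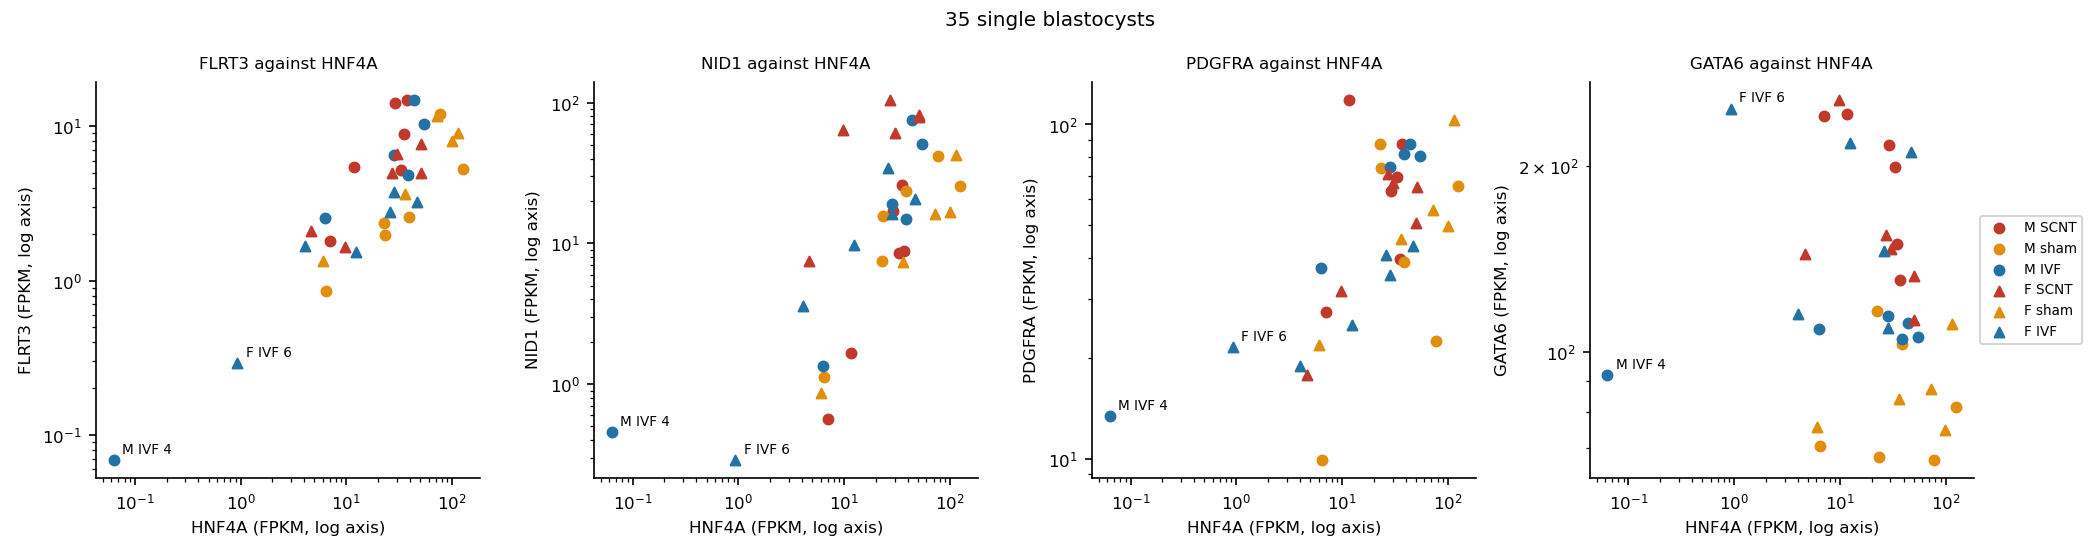
FPKM of FLRT3, NID1, PDGFRA and GATA6 against HNF4A in the 35 blastocysts, on log axes, with circles for male and triangles for female embryos and colours for origin. FLRT3 and NID1 were higher in embryos with more HNF4A, and the embryos with least HNF4A, male IVF-BL replicate 4 and female IVF-BL replicate 6, stood at the low end of both. GATA6 showed no such trend (r = -0.13 within groups).

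Single values describe the low embryos. Male IVF-BL replicate 4 had 0.0634 FPKM of HNF4A, 0.0683 FPKM of FLRT3 and 13.4 FPKM of PDGFRA, each the lowest of its group. It was not low for these genes alone. It was also the lowest of the group for GATA6 (92.0 FPKM), GATA4 (1.48 FPKM), LAMA1 (2.79 FPKM) and COL4A1 (1.57 FPKM). Female IVF-BL replicate 6 had 0.933 FPKM of HNF4A and 0.293 FPKM of FLRT3, again the lowest. Its PDGFRA (21.6 FPKM) was not the lowest, and its GATA6 (248 FPKM) was the highest of the female IVF-BLs. A low HNF4A level thus occurred beside a GATA6 level little below the rest of its group (105 to 114 FPKM) and beside a high one. The 2 embryos came from different flow cells.

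The genes most like HNF4A over the 35 blastocysts, among 11154 others with a mean over 1 FPKM, were NID1 (r = 0.91), FLRT3 (0.89), DYNC1H1 (0.80), SLC7A7 (0.77) and CCL24 (0.76). NID1 encodes nidogen-1, which links laminin to type IV collagen. Its r with HNF4A was 0.90 in male and 0.92 in female blastocysts, where it ranked 2 and 1, and FLRT3 ranked 3 in each set. For FLRT3 the nearest genes were HNF4A (0.89), NID1 (0.85), CCL24 (0.78), DYNC1H1 (0.78) and MED24 (0.75). NID1 averaged 66.3 FPKM in female SCNT-BLs, against 14.1 FPKM in IVF-BLs of that sex, a difference of 2.47 that did not pass (limma adjusted p = 0.19). The same difference was -0.75 for male embryos (limma adjusted p = 0.687). NID1 was also a donor cell gene, at 311 FPKM in the male and 231 FPKM in the female fibroblasts. The embryos share a library protocol with amplification from single embryos, and these ranks are descriptions with no test.

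PDGFRA had another set of nearest genes, KIT (r = 0.84), KDM2B (0.82), SLC4A7 (0.82), AHCYL2 (0.81) and BCNT2 (0.76), with HNF4A at rank 10. KIT encodes a receptor tyrosine kinase of the same class as PDGFRA. Of 10 epiblast markers with a mean over 1 FPKM, 3 correlated positively with HNF4A. They ran from POU5F1 at r = -0.48 to NANOG at r = 0.72, which ranked 11 among all genes. At the other end, SPRED2, a feedback inhibitor of ERK signalling, had the most negative correlation with HNF4A of all 11154 genes (r = -0.72). The 13 trophectoderm markers with a mean over 1 FPKM ran from TFAP2C, a factor gene at -0.63 with HNF4A and -0.74 with FLRT3, to its paralogue TFAP2A at 0.57 with HNF4A and 0.69 with FLRT3. With each of the 2 members 11 of these 13 were positive. HNF4A correlated at 0.45 with summed trophectoderm and 0.45 with summed cumulus markers, at -0.18 with summed epiblast markers, and at 0.14 with relative depth, and the part of these in the pattern was not tested.

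GATA6 went with a different group. It correlated with COL4A1 at r = 0.55 (rho 0.57, permutation p = 0.00062 and 0.00052, adjusted 0.00325 and 0.00469), with 0.63 in male and 0.52 in female blastocysts and 0.59 without the 2 farthest. With GATA4 the sign was negative, at r = -0.52 (rho -0.55, permutation p = 0.00465 and 0.00307, adjusted 0.018 and 0.0107), with -0.63 in male and -0.48 in female blastocysts and -0.49 without the 2 farthest. With HNF4A (r = -0.13), FLRT3 (-0.23) and PDGFRA (0.16) it passed no test (permutation p = 0.144 to 0.473, adjusted 0.335 to 0.623). The genes most like GATA6 were ZFAND5 (0.75), LOC100337041 (0.74), FAM113B (0.74), RALGPS2 (0.73) and SPDYC (0.70). Of 10 epiblast markers, 7 correlated positively with GATA6, from TDGF1 at -0.41 to KLF4 at 0.68, which ranked 8. GATA6 also correlated with summed epiblast (0.61), trophectoderm (-0.60) and fibroblast markers (0.57), and the part of these was not tested.

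**Figure D4:**
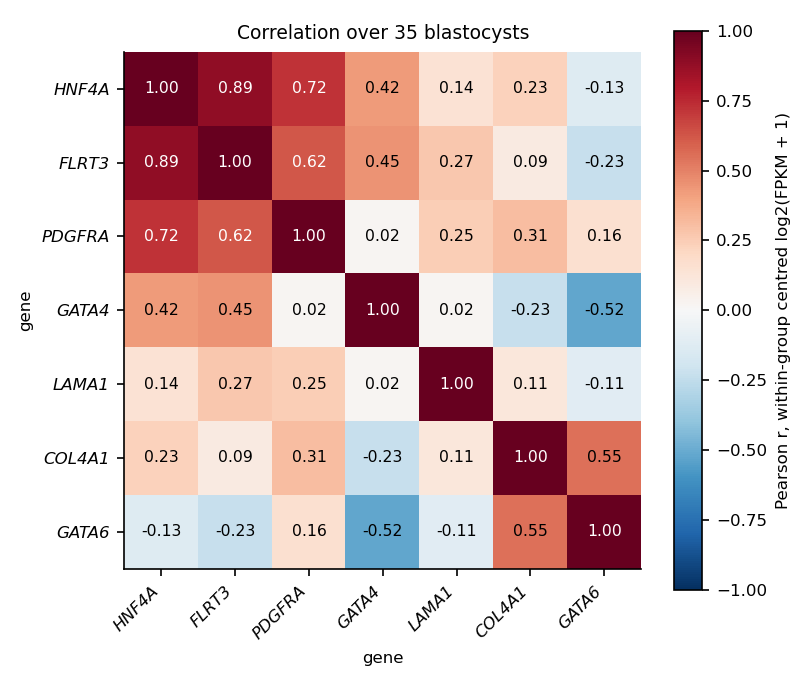
Pearson correlations between 7 members over 35 blastocysts, on log2(FPKM + 1) after subtraction of each group's mean. HNF4A, FLRT3 and PDGFRA form a block of 0.62 to 0.89, GATA6 pairs with COL4A1 at 0.55, and GATA6 and GATA4 stand at -0.52.

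GATA4 itself correlated with HNF4A at r = 0.42 (rho 0.51, permutation p = 0.00513 and 0.0029, adjusted 0.018 and 0.0107) and with FLRT3 at r = 0.45 (rho 0.52, permutation p = 0.00823 and 0.00257, adjusted 0.0247 and 0.0107). In the male and female sets the values were 0.42 and 0.47 for HNF4A, and 0.39 and 0.61 for FLRT3. Without the 2 embryos farthest on GATA4 they were 0.45 for each. With a pseudocount of 0.1 FPKM both no longer passed (r = 0.32, adjusted p = 0.0526, and r = 0.34, adjusted p = 0.0945, by permutation). The gene most like GATA4 was TDGF1 (0.76), which encodes the Nodal co-receptor Cripto, followed by PLBD2 (0.70), LOC783730 (0.70), GLIPR1 (0.69) and DLX4 (0.69). For TDGF1 the r was 0.83 in male (rank 1) but 0.49 in female blastocysts (rank 487). TDGF1 was low, with a mean of 1.52 FPKM. Male SCNT-BL replicate 4 was the highest embryo for both genes, with 20.7 FPKM of TDGF1 and 3.51 FPKM of GATA4. GATA4 correlated at 0.42 with summed FPKM, whose part was not tested.

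The 2 matrix genes did not follow each other. LAMA1 and COL4A1 correlated at r = 0.11 (rho 0.10, permutation p = 0.561 and 0.588, adjusted 0.654 and 0.785), with 0.22 in male and -0.06 in female blastocysts. Among the 5 genes most like LAMA1 were LEPREL1 (0.71), SPON1 (0.66), CENPJ (0.62) and ACAT1 (0.61), with NID2, the other nidogen gene, at 0.60 and rank 8. LEPREL1 encodes a prolyl 3-hydroxylase that modifies collagen. Those most like COL4A1 were HNRNPAB (0.68), CCDC112 (0.66), POLB (0.66), LOC790312 (0.66) and TRAP1 (0.65), and COL4A2, its partner chain, correlated at 0.36 with rank 577. COL4A2 was low, with means of 0.539 to 1.32 FPKM in the 6 blastocyst groups.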

How the data were processed

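Expression was measured in single blastocysts by RNA-seq after whole-embryo cDNA amplification. The deposited table gives FPKM per gene, which the authors calculated with Cufflinks for known transcripts after Trim Galore trimming and TopHat alignment of paired reads to UMD 3.1 (per the methods and processing notes, which also list Cuffdiff). FPKM holds no counts, so depth could be judged only in relative terms. The measure was the commonest ratio to male IVF-BL replicate 1 among values under 1 FPKM in both libraries. Only 11.8% to 20.5% of these values stood at that ratio (median 16.0%), so the measure is rough. The p-values measure the spread between embryos, and do not measure variation between donor animals of the SCNT-BLs. No columns were left out.

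Values were tested as log2(FPKM + 1) with limma 3.58.1 (R 4.3.3, eBayes with trend) on all genes with a mean over 0.1 FPKM in the libraries compared, with Benjamini-Hochberg adjustment over all of them and a threshold of 0.05. Fold changes on this scale understate changes of low genes. Only the 2 groups compared entered each fit, and differences between sets were interaction terms. The procedure was tested on simulated data. Correlations used 100000 two-sided permutations within groups (Python 3.11.15, numpy 2.4.6).

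The 8 members were named in every comparison. Of the related lists (other primitive endoderm, FGF and ERK, PDGF, collagen IV processing, basement membrane receptors, epiblast, trophectoderm, fibroblast and cumulus genes), up to 6 called genes with the largest change per list and comparison could be named, and the 5 genes most correlated with each member (for SOX17 not given, since it rests on 4 embryos). Genes named beyond this rule (SOX7, FOXA2, TTR, CER1, AFP, and NANOG, POU5F1, SPRED2, TFAP2A, TFAP2C, TDGF1, KLF4, NID2 and COL4A2 by their correlations) were chosen after their values were seen. Some genes that the rule would name are not reported here. Members and lists were chosen with earlier results of these data known. Alternatives were another pseudocount, other filters, median centring, a fit of all 6 groups, the replicate number as a block and leaving out each embryo.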

Additional observations from a re-analysis of the deposited data

Results flagged for a closer look

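Of 44 sets of values (a gene in a group, leaving out those listed at 0 throughout), 4 held an embryo that stood apart from the rest by Dixon's test at the 95% level, where chance gives about 1 in 20. SOX17 was 1.09 FPKM in male IVF-BL replicate 3, with the other 5 at 0 to 0.258 FPKM, and 0.191 FPKM in female IVF-BL replicate 3, with the others listed at 0. Any value above 0 would be flagged beside zeros alone, so the female SOX17 flag carries no weight. LAMA1 was 2.79 FPKM in male IVF-BL replicate 4, with the others at 14.2 to 27.0 FPKM. This embryo was also the lowest of its group for HNF4A, FLRT3, PDGFRA, GATA6, GATA4 and COL4A1. COL4A1 was 8.50 FPKM in female SCNT-BL replicate 6, with the others at 3.45 to 4.89 FPKM.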

How the results depend on the processing

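Of 827 values of single members under an alternative, 802 kept their direction and side of the threshold, 10 reversed, 8 lost and 7 gained a call. The GATA6 calls in male SCNT-BLs (against IVF-BLs and against sham NT-BLs) and the GATA4 call in male sham NT-BLs were kept under every alternative run. None of the values that reversed had passed the test. Leaving out 1 embryo at a time, COL4A1 ran from -0.057 to 0.33 in female SCNT-BLs against sham NT-BLs and from -0.33 to 0.10 in male sham NT-BLs against IVF-BLs, GATA4 from -0.11 to 0.34 in male SCNT-BLs against sham NT-BLs, HNF4A from -0.35 to 0.79 and PDGFRA from -0.19 to 0.42 in male SCNT-BLs against IVF-BLs, and PDGFRA from -0.39 to 0.16 in female SCNT-BLs against sham NT-BLs. A fit of all 6 groups called GATA4 in male SCNT-BLs against IVF-BLs and LAMA1 in female SCNT-BLs against sham NT-BLs (adjusted p = 0.0433).

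The count of genes called by limma in female SCNT-BLs against IVF-BLs was the least stable, at 49. It was 75 with a filter of 1 FPKM, 1 without a filter, 131 with all 6 groups in the fit, and 1 to 57 without 1 embryo, the 1 being without female SCNT replicate 3. At an unadjusted p under 0.05 it held 1664 genes. The cause was not tested. None of the 7 members tested passed there under any of these settings.

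Replicate numbers did not pair the embryos, since same-numbered embryos correlated at -0.21 to 0.07. With a replicate block the counts were 652 in male SCNT-BLs against IVF-BLs (1040 without), 20 in female SCNT-BLs against IVF-BLs, 1306 in female sham NT-BLs against IVF-BLs (2061 without) and 1060 in female SCNT-BLs against sham NT-BLs (1706 without). The block left GATA6 at limma adjusted p = 0.0847 in female SCNT-BLs against sham NT-BLs and 0.0576 in female sham NT-BLs against IVF-BLs, and put COL4A1 at -0.0095 in the first of these.

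The correlations and their alternatives were chosen after seeing the data. Without male IVF-BL replicate 4 and female IVF-BL replicate 6, GATA4 no longer passed with HNF4A (r = 0.33, adjusted permutation p = 0.172) or FLRT3 (r = 0.38, adjusted permutation p = 0.172). HNF4A with FLRT3 passed in each set alone, and HNF4A with PDGFRA and PDGFRA with FLRT3 passed in the female set but not in the male set (adjusted permutation p = 0.0742 and 0.13). GATA4 with FLRT3 passed in the female set but not in the male set (0.232). In neither set alone did GATA6 pass with COL4A1 (0.0742 male, 0.151 female) or GATA4 (0.113 male, 0.281 female), nor GATA4 with HNF4A (0.13 male, 0.25 female).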
